A study of Mus musculus with 35 samples.

Results

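The step from the zygote to the 2-cell (2C) stage was followed in mouse embryos that had been injected with mRNA encoding KDM5B, an enzyme that removes methyl groups from lysine 4 of histone H3. The members were all samples whose labels give Kdm5b mRNA as the injected material, 10 zygotes and 6 2C samples, which make up 16 of the 35 samples of the series. The other 19 samples, 10 zygotes and 9 2C samples, had received water and served as controls. All embryos were wild type on the C57BL/6NRj background and came from superovulated females, with the embryos of several females mixed before use. Zygotes were fresh, were injected in S phase and were collected 17 h after ovulation. The 2C embryos came from zygotes that had been frozen and thawed, both blastomeres were injected soon after the division, and collection followed 5.5 to 8 h after that division. In each case RNA was taken 5 to 6 h after injection, so the 2C samples were not the later form of the injected zygotes but separate embryos with the same length of exposure to Kdm5b-yfp mRNA, which carries a fluorescent tag. Each zygote sample was 1 embryo. Of the 6 Kdm5b 2C samples, 5 were single intact embryos and replicate 6 was a pool of 3 blastomeres from 3 embryos. In each embryo of that pool the other blastomere had died after injection and was removed. Libraries of the 2 stages were made on different days, so that stage, library day and thawing cannot be told apart in any stage difference below, and no value within a batch could be given.

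A mouse zygote lives on RNA and protein that the oocyte has stored. A weak first wave of transcription begins late in the zygote, a strong wave follows in the second part of the 2C stage, and between them most of the stored maternal messages are degraded. Genes and retroviral elements that are switched on for a short time around the 2C stage, among them the Zscan4 family and the endogenous retrovirus MERVL, mark the onset of the embryo's own programme, whereas loss of oocyte messages marks maternal clearance. Histone H3 trimethylated at lysine 4, the mark removed by KDM5B, lies over broad domains in the oocyte genome and is lost from them during the 2C stage.

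RNA-seq gave between 10966013 and 16004780 fragments on genes in the Kdm5b zygotes (median 15465773.5) and between 9611553 and 11047189 in the Kdm5b 2C samples (median 10577773.5), counted without Kdm5b itself. The injected message was seen in every sample. Kdm5b took 2.30 to 10.4% of all gene fragments in the 10 zygotes (median 3.91%) and 8.27 to 15.8% in the 6 2C samples (median 11.3%), against at most 0.00137% in control zygotes and 0.0189% in control 2C samples. Its row was removed before normalization, and the levels below are CPM, the counts of a gene set against the library total of the remaining gene fragments, scaled by TMM. No spike-in was used, so every level is a share of the RNA that was sequenced, and fewer blastomeres and less RNA per blastomere cannot be told apart.

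Embryo identity was checked with 8 oocyte and early embryo genes, all of which passed the filter on low counts. As described below, 4 of them (Nlrp5, Ooep, Padi6 and Zar1) fell and 0 rose, beside 16.0% lower and 10.5% higher among all genes tested. Among the 8, the lowest 2C median, that of Zp3, was still 30.4 CPM. Their summed level in TPM, the share of transcripts after division by exon length, was 10733 to 13206 in the Kdm5b zygotes and 6002 to 10509 TPM in the 2C samples, with Dppa3, a maternal protector of DNA methylation, as the most abundant. Of 17 markers of cumulus and granulosa cells, the cells that surround the oocyte, 4 passed that filter. Of these 1 was called, Kitl, higher by 1.06 on the log2 scale, beside 10.5% higher and 16.0% lower among all genes tested. The 17 markers summed to 28.2 to 51.1 TPM in the zygotes (median 37.8) and 20.2 to 41.6 TPM in the 2C samples (median 26.2), with Cyp19a1, the aromatase gene, as the most abundant (30.6 TPM in zygotes and 13.0 TPM in 2C samples at the medians). Of the 17, Amh and Inhba were at 0 in all 6 2C samples, whereas Cyp19a1 and Kitl were detected. The presence of such cells was not tested.

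Between the stages, 1301 of 12390 genes tested were higher in the Kdm5b 2C samples (10.5%) and 1977 were lower (16.0%), at an adjusted p under 0.05 and more than a 2-fold difference (edgeR quasi-likelihood test with Benjamini-Hochberg adjustment). The 2 directions had different shapes. Many of the genes that rose started from almost nothing: 451 of them (34.7%) had a mean under 1 CPM in the zygotes, against 8.64% of all genes tested, and 103 had a mean of 100 CPM or more. A gene that was near 0 in the zygotes passed the filter on low counts through the 2C samples alone, so such genes were bound to differ and their share is a description. Of the genes that fell, 9 had a zygote mean under 1 CPM and 426 had a mean of 100 CPM or more. Differences of over 16-fold were found for 72 of the genes that rose and for 7 of those that fell, while the median change of all genes tested was 0.01 on the log2 scale. The samples of the 2 stages did not overlap for 28.6% of the genes tested, and this was so for 1489 of the 1977 genes that fell (75.3%) and for 520 of the 1301 that rose (40.0%). Genes were called on these same samples, so less overlap among called genes was bound to follow and these shares are a description. Genes that fell had shorter messages, a difference that was not tested, with a median summed exon length of 2232 bases against 3028 for genes that rose and 3010.5 for all genes tested.

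**Figure D1:**
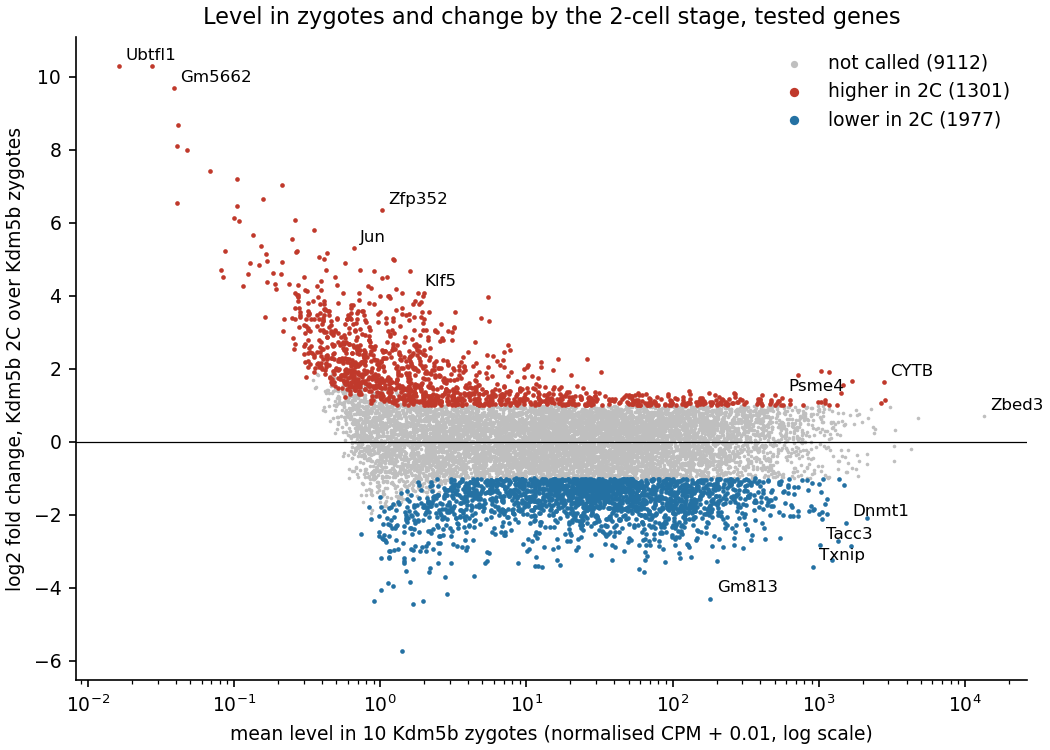
Each point is a gene, with its mean level in the 10 Kdm5b zygotes (normalised CPM plus 0.01, log scale) on the x axis and the log2 fold change of the 6 Kdm5b 2C samples over the zygotes on the y axis. Red points (1301 genes) were called higher and blue points (1977 genes) lower, and the largest rises start from levels under 1 CPM.

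Many genes of the 2C programme were raised. Of 36 listed 2C activation genes, 33 were in the table and 25 passed the filter, of which 18 rose and 2 fell, with a median log2 fold change of 3.99, beside 10.5% higher and 16.0% lower among all genes. Several of these genes, among them Ubtfl1 and Zscan4a, passed the filter only through the 2C samples, so the count is a description. Ubtfl1, a relative of the nucleolar transcription factor gene Ubtf that is expressed in preimplantation embryos, had the smallest p of all genes that rose. It was at 0 in 9 of the 10 zygotes and at 0.0631 CPM in the other, whereas the 2C samples had 6.56, 20.1 and 34.8 CPM as lowest, median and highest. The 2 groups thus did not overlap, and the pooled level was 3107 times that of the zygotes, with a 95% counting interval of 557 to 122810 because the zygotes held a single fragment. Zfp352, a zinc finger gene typical of the 2C stage, had 0, 0.738 and 2.40 CPM in the zygotes and 42.3, 64.05 and 168 CPM in the 2C samples, also without overlap (log2 fold change 6.36 with a standard error of 0.494, adjusted p = 1.19e-10, edgeR). Among the Zscan4 genes, which encode telomere-associated proteins of the 2C stage, Zscan4a went from 0, 0 and 0.378 CPM to 1.36, 9.08 and 18.0 CPM (log2 fold change 6.46) and Zscan4d from 1.10, 3.04 and 13.3 CPM to 34.2, 54.0 and 59.7 CPM (3.39). Zscan4c and Zscan4f rose as well, by 3.99 and 6.65 on the log2 scale. All 5 tested members of the Usp17l deubiquitinase family rose, the most abundant being Usp17lc, at 2.504, 4.15 and 11.0 CPM in the zygotes and 54.1, 81.2 and 132 CPM in the 2C samples. Tmem92, a membrane protein gene of the same programme, rose from a median of 1.88 to 20.6 CPM, and Spz1, Pramef25, Gm428, BC080695, Gm4971 and Tcstv3 rose too. D5Ertd577e fell, by 1.43 on the log2 scale, and the most abundant member, Sp110, had an estimate of -0.37 and was not called. Members of the Zscan4, Usp17l and other multigene families share sequence, and fragments that matched several places were not counted, so the split among copies is uncertain.

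Promoter sequences were available for part of the genes that rose. RefSeq windows (GRCm38.p6, 250 bases before to 50 bases after the annotated start) are shown for the 3 genes with the smallest p among those that rose and had a window and, beside Ubtfl1, for the 2 further 2C activation genes of that kind with the smallest p, so that genes that rose from a low level can be read beside genes that rose from a high level. Capitals mark matches, on either strand, to TAATCC, the core letters that OBOX and related homeobox proteins recognise. Ubtfl1 lies at chr9:18404168-18404467 (+ strand), Wdr26 at chr1:181211929-181212228 (- strand), Trappc10 at chr10:78244596-78244895 (- strand), Usp17lc at chr7:103416446-103416745 (+ strand) and Zfp352 at chr4:90218570-90218869 (+ strand). The sequences are written 5′ to 3′ on the strand of the gene.
Ubtfl1: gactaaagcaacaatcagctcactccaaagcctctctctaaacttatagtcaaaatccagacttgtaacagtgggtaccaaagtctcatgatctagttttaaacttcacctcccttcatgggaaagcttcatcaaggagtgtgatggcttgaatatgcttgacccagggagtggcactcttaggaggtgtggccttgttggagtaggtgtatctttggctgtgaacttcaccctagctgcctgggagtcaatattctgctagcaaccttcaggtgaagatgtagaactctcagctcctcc
Wdr26: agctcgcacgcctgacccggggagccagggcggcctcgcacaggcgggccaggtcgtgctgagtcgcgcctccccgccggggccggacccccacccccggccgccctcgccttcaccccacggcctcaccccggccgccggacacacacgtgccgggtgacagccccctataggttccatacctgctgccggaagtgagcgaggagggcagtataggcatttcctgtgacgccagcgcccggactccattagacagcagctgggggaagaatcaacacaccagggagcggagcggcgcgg
Trappc10: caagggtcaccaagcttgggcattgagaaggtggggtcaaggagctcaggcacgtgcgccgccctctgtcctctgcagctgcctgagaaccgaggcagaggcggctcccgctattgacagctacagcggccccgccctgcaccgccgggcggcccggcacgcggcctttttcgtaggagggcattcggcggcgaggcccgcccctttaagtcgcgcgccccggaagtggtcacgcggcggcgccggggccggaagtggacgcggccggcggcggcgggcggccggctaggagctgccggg
Usp17lc: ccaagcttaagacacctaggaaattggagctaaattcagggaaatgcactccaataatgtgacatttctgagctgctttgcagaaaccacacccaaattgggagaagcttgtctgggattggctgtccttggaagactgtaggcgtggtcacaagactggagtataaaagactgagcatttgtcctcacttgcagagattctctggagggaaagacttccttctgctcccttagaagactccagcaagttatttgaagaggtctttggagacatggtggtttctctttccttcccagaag
Zfp352: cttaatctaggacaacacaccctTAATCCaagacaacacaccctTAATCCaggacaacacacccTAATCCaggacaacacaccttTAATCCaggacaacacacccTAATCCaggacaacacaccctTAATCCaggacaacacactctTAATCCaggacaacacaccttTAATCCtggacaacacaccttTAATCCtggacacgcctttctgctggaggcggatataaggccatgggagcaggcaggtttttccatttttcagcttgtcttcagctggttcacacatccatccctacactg

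The 2 promoters of abundant genes, Wdr26 and Trappc10, were rich in G and C (71.3% in Wdr26 and slightly more in Trappc10) and held 30 and 38 CpG pairs. Those of Ubtfl1, Usp17lc and Zfp352 had 45.7 to 47.0% G and C and at most 2 CpG pairs. The Zfp352 window held 9 matches to TAATCC in a short repeated stretch upstream of the start, and the other 4 windows held 0. At least 1 match was found in 7.06% of all 32851 windows of the table and in 6.98% of the 9984 tested genes that had a window. Windows were found for 78.5% of the genes that rose and 79.4% of those that fell and were missing for the rest, and these sets were not compared. Neither TCAAGGNCA, the letters read by NR5A2 (in 1.62% of all windows), nor the DUX-type letters TGATTNAATCA (in 11 of all windows), were present in the 5 windows shown, on either strand; none of the 3 letter strings contains another. A match is a description of the letters and not evidence of binding.

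The Eif1a-like genes are copies of a translation initiation factor gene that are active in the 2C embryo. Of 12 listed, 10 were in the table and 4 passed the filter, all of them called higher; as most had only a few fragments in the zygotes, they passed through the 2C samples, so this count was bound to follow. Gm8300 was at 0, 0 and 0.315 CPM in the zygotes and at 7.17, 16.7 and 32.1 CPM in the 2C samples, and Gm5662 at 0, 0 and 0.227 CPM and at 2.19, 36.6 and 52.6 CPM. Gm13078, which is on none of the lists, was among the 12 genes that rose with the smallest p; it had 2 fragments over all zygotes and 1764 over the 2C samples, a ratio of pooled levels of 2189 (95% counting interval 605 to 18087). The Obox genes, oocyte and embryo homeobox factors, split: Obox3 and Obox6 rose from medians of 0.488 and 0.467 CPM to 10.1 and 3.46 CPM, while Obox2 fell from 856, 1019 and 1116 CPM to 146, 233 and 417 CPM (log2 fold change -1.98, standard error 0.146). Obox5, the most abundant of the 6 in the 2C samples, had a median of 921 CPM in zygotes and 1368 CPM in 2C samples, under the 2-fold threshold. Among 18 tested early embryo transcription factors, 5 rose and 1 fell, beside 10.5% higher and 16.0% lower among all genes, with a median log2 fold change of 0.26. Klf5, a factor of the first lineages, rose from 0.189, 1.40 and 4.50 CPM to 9.29, 23.2 and 90.6 CPM (log2 fold change 4.09, and 3.38 without 2C replicate 1), and Zfp42, Rarg, Tbx3 and Sox2 rose by 2.60, 2.49, 1.17 and 1.01 on the log2 scale. Nr5a2 and Klf17 were not called (estimates -0.22 and -0.13), and Esrrb, an orphan nuclear receptor gene, fell (log2 fold change -1.23).

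Several of the 12 genes that rose with the smallest p were abundant genes with changes close to 2-fold, and the order by p favours genes of small spread. Wdr26, a subunit of the CTLH ubiquitin ligase, had 480, 509 and 564 CPM in the zygotes and 1003, 1046 and 1188 CPM in the 2C samples (log2 fold change 1.06, standard error 0.061, adjusted p = 1.14e-12, edgeR). Wapl, which releases cohesin from chromosomes, went from 928, 979 and 1087 CPM to 1801, 2016 and 2350 CPM, again without overlap. Psme4, the activator that caps the proteasome and serves the removal of acetylated histones, rose from 505, 550 and 647 CPM to 1133, 1228 and 1661 CPM (log2 fold change 1.21). Trappc10, Ahctf1, Fyco1 and Dtx2, genes of vesicle tethering, nuclear pore assembly, vesicle transport and Notch signalling, rose by 1.03 to 1.25 on the log2 scale, and Rbbp6, a cofactor of 3′ end processing, by 1.91. For Wdr26 and Dtx2 the estimate lay so close to the 2-fold threshold that without the filter on low counts they were no longer called, and Dtx2 was also lost without Kdm5b 2C replicate 3. Tmem132c rose from a median of 16.8 to 77.9 CPM.

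Structural RNAs and the mitochondrial genome were the most abundant among the genes that rose. Rn7sk, the small RNA that holds the elongation factor P-TEFb inactive, rose from 1028, 1392 and 1974 CPM to 2522, 3293 and 5337 CPM. Of 12 tested mitochondrial genes 11 rose, beside 10.5% of all genes, with a median log2 fold change of 1.65. CYTB, a subunit of respiratory complex III, went from 2230, 2764 and 3182 CPM to 5134, 8486 and 15314 CPM (log2 fold change 1.65, standard error 0.156), and ND2, a subunit of complex I, from 683, 1063 and 1251 CPM to 2369, 3563 and 6652 CPM. As a whole, mitochondrial genes took 0.714, 0.957 and 1.10% of gene fragments in the zygotes and 1.67, 2.73 and 4.57% in the 2C samples, a difference of means of 1.85 percentage points (two-sided exact permutation test over 8008 relabellings, p = 0.000125, the smallest possible, adjusted over 3 measures 0.000187). The control samples had medians of 0.903% and 2.73%. Replication-dependent histone genes rose in number: 34 of 51 tested were higher and 0 were lower (17 were not called), beside 10.5% and 16.0% of all genes, with a median log2 fold change of 1.19. Hist1h2ai rose from a median of 0.223 to 4.78 CPM, and the abundant linker histone gene Hist1h1a went from 1209 to 2148 CPM, just under the threshold. These histone genes are short, repeated and hard to tell apart, so single copies are uncertain.

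Many messages that were abundant in the zygotes were lower in the 2C samples, the direction that maternal clearance takes. Most of those named here were picked by p or by abundance. Tacc3, a spindle microtubule gene, had 901, 1024 and 1139 CPM in the zygotes and 113, 139 and 191 CPM in the 2C samples, a 7.11-fold fall without overlap (log2 fold change -2.83, standard error 0.103, adjusted p = 1.06e-15, edgeR). Ncapg, a condensin subunit, fell from 378, 429 and 525.6 CPM to 59.5, 63.8 and 79.3 CPM, and Zar1l, which binds stored maternal messages, from 181, 203 and 245 CPM to 28.5, 31.8 and 38.8 CPM. Txnip, an inhibitor of thioredoxin, fell 10.7-fold, from 705, 855 and 1178 CPM to 63.2, 83.8 and 123.2 CPM. The steepest of the 12 genes with the smallest p was Gm813, which went from 122.5, 178.5 and 231.1 CPM to 4.51, 9.25 and 13.2 CPM (19.6-fold lower). Ssb, which encodes the La protein that binds new small RNAs, Fam50a and Gpatch1, both tied to splicing, fell 9.43, 9.52 and 7.04-fold, while Timm9 (mitochondrial import), Tubb4b (tubulin), Psma7 (proteasome), Ube2t (DNA crosslink repair) and Pdcd5 fell 4.54, 4.31, 5.62, 6.29 and 7.15-fold. Among the most abundant genes that fell, per length, were Slbp, the protein that binds the ends of histone messages (1535 to 489 CPM at the medians), and the chaperone Hsp90aa1 (2106 to 504 CPM). Ldhb, a lactate dehydrogenase gene, had 1100, 1381 and 1644 CPM in the zygotes and 370, 647 and 951 CPM in the 2C samples; its fall (log2 fold change -1.03) was no longer past 2-fold under 9 of the alternatives, among them leaving out Kdm5b 2C replicate 1, 4 or 6.

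The oocyte lists differed in how many members fell, beside 16.0% lower and 10.5% higher among all genes. Of the 8 tested genes of the subcortical maternal complex, a structure under the egg surface, 5 fell and 0 rose (3 were not called), with a median log2 fold change of -1.56. Nlrp5 fell from 653, 872 and 1130 CPM to 201, 263 and 324 CPM, and Padi6, Ooep, Khdc3 and Tle6 fell by 1.74, 1.74, 1.61 and 1.52 on the log2 scale. Zbed3, the most abundant message of the zygotes at a median of 15749 TPM, had 10631, 13374 and 15671 CPM in the zygotes and 16708, 23311 and 24797 CPM in the 2C samples, an estimate of 0.70 that did not pass 2-fold. Among 33 tested genes of M phase and the spindle 14 fell and 2 rose (median -0.72, beside 10.5% higher and 16.0% lower among all genes): the checkpoint kinase gene Bub1b fell by 2.64, the activator of the anaphase complex Cdc20 by 2.18 and the mitotic kinases Plk1 and Aurka by 2.02 and 1.78 on the log2 scale. Pkmyt1 and Cdc25c, an inhibitor and an activator of the mitotic kinase CDK1, rose by 1.06 and 1.14. The groups overlapped for Cdc25c, and its call was lost with limma voom, under the replicate block and without Kdm5b 2C replicate 4. In 3 further lists most members were not called, and their shares stand beside 16.0% lower and 10.5% higher among all genes. Of 24 genes of deadenylation and decay, 3 fell and 2 rose: Pabpn1l, the adaptor through which BTG4 reaches messages, fell from a median of 100 to 12.8 CPM, and Cnot10, a subunit of the main deadenylase complex, and the uridylating enzyme gene Zcchc6 fell by 1.34 and 1.01 on the log2 scale. The deadenylase subunit gene Pan3 rose by 1.18. Zcchc11, also a uridylating enzyme gene, was called higher (2.54), but its groups overlapped at 0, 0.881 and 1.96 CPM in zygotes and 1.24, 1.93 and 17.2 CPM in 2C samples, the value was 1.67 without 2C replicate 1, and the call was lost under the replicate block (adjusted p = 0.151, edgeR). Btg4 itself had medians of 2411 and 2992 CPM and was not called. Of 17 genes of message storage, 4 fell (Zar1l, Patl2, Cpeb1, Zar1) and 0 rose, and of 11 zona and oocyte-secreted factors, Oosp2 and Plat fell and 0 rose. Nobox and Figla, transcription factors of the growing oocyte, fell by 1.90 and 1.22 on the log2 scale, and Taf4b rose by 1.26, while Foxo3, the most abundant of the 7 tested, had an estimate of 0.51.

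**Figure D2:**
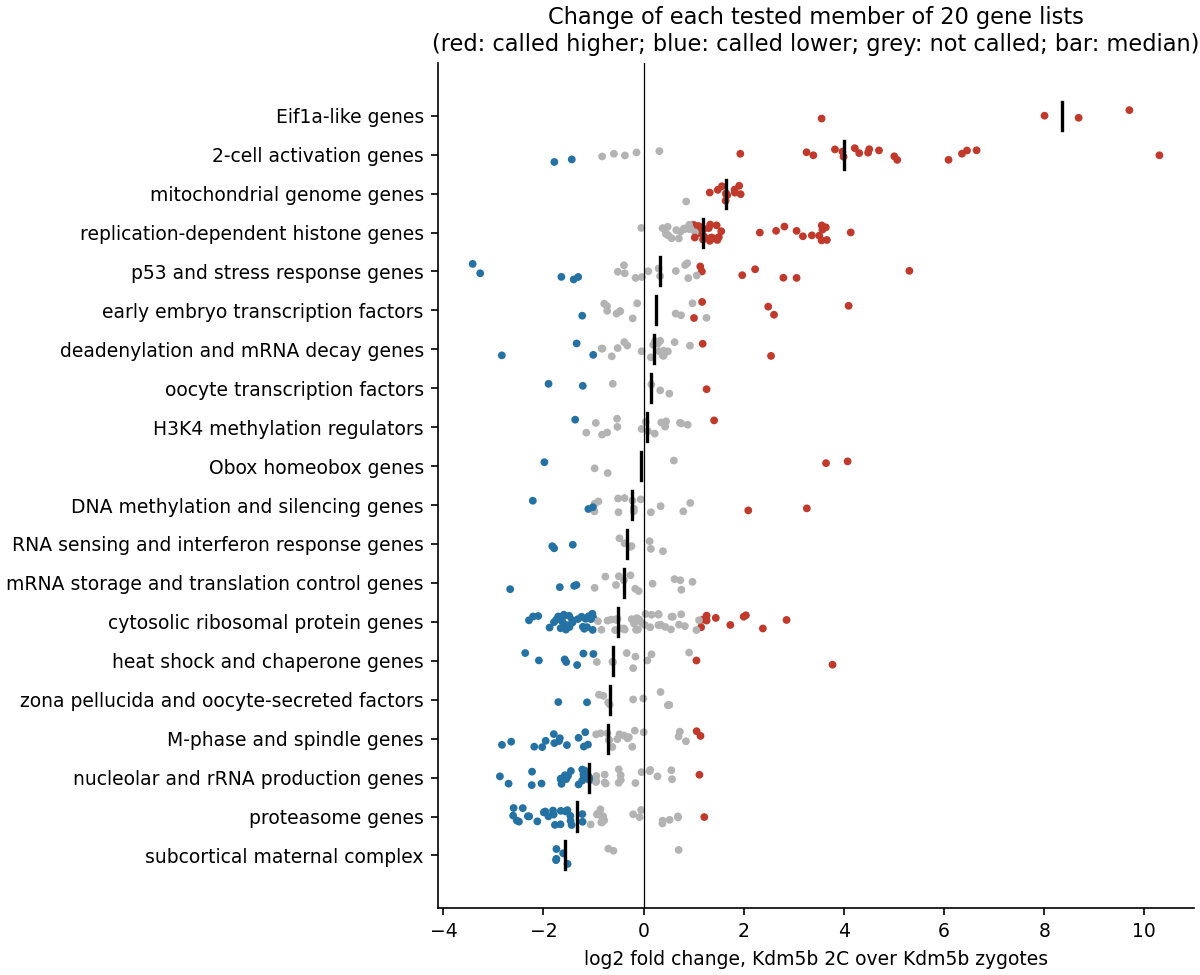
Each point is a tested member of a gene list, placed by its log2 fold change in Kdm5b 2C samples over Kdm5b zygotes, with black bars at the list medians. The lists run from the Eif1a-like genes (median 8.35) to the subcortical maternal complex (median -1.56), and red and blue mark members called higher and lower.

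Housekeeping machinery was lower for many members. Of 39 tested genes of the nucleolus and rRNA production, 21 fell and 1 rose (median -1.09), beside 16.0% lower among all genes. Wdr12, a factor of the large ribosomal subunit, fell from 17.8, 22.7 and 25.8 CPM to 1.90, 2.32 and 5.82 CPM, and Polr1e, Noc2l and Nolc1 fell by 2.23, 2.04 and 1.65 on the log2 scale. Npm1, the most abundant in TPM, had medians of 920 and 477 CPM, an estimate of -0.78. Ncl, with a higher zygote median of 1121 CPM, fell by 1.57 on the log2 scale. Of 42 tested proteasome genes, 23 fell and Psme4 alone was called higher (median -1.33). Psmc5 and Psmd12 of the regulatory particle fell by 2.61 and 2.60 and Psma4 of the core by 2.29 on the log2 scale, whereas the activator gene Psme3 and the lid gene Psmd3 had estimates of 0.68 and 0.69. Of 79 tested ribosomal protein genes 32 were lower and 10 higher, beside 16.0% and 10.5% of all genes, with a median of -0.52. Rpsa, a component of the small subunit, rose from a median of 2.45 to 18.2 CPM. Because many of these genes have processed pseudogenes with which fragments are shared, their levels are uncertain. Of 18 heat shock genes 7 fell and 2 rose, beside 16.0% and 10.5% of all genes, among them Dnaja1 (-2.36) and the cochaperone Bag3 (3.77).

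Chromatin regulators changed in part. Of 18 tested regulators of histone H3 lysine 4 methylation, other than the injected Kdm5b, 1 rose and 1 fell, beside 10.5% and 16.0% of all genes, and the median was 0.06. Kdm5a, a close relative of Kdm5b, rose from 3.38, 5.48 and 8.20 CPM to 9.45, 11.6 and 33.6 CPM (log2 fold change 1.41, standard error 0.259; 1.01 without 2C replicate 1), and Rbbp5, a core subunit of the methyltransferase complexes, fell from a median of 126 to 41.0 CPM. The large methyltransferase genes Kmt2c and Kmt2d had estimates of 0.88 and 0.75, and Kdm2b, the most abundant, -0.95. Kdm2b was called lower under 5 alternatives, among them the replicate block and leaving out 2C replicate 2 or 3. Of 19 genes of DNA methylation and silencing 2 rose and 3 fell, beside 10.5% and 16.0% of all genes, with a median of -0.22. The other 14 were not called, among them the most abundant in TPM, Dppa3 (-0.22). Dnmt1, the maintenance DNA methyltransferase, fell from 1173, 1383 and 2096 CPM to 254, 335 and 366 CPM, and Setdb1 and Trim28, partners in silencing of retroviral elements, fell by 1.10 and 1.01 on the log2 scale. Suv39h1, a histone H3 lysine 9 methyltransferase gene, rose from a median of 0.663 to 7.19 CPM, and Tet1, which oxidises methylated cytosine, from 4.12 to 18.8 CPM.

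Stress and RNA sensing genes were examined because the embryos had been handled and injected with RNA. Of 25 tested p53 and stress genes, 7 rose and 5 fell, beside 10.5% higher and 16.0% lower among all genes. Jun, part of the AP-1 factor, had 0.185, 0.522 and 1.89 CPM in the zygotes and 0.626, 19.3 and 76.4 CPM in the 2C samples, with overlap between the groups (log2 fold change 5.31, and 4.58 without 2C replicate 1), and Cdkn1a, Sesn2 and Hmox1 rose by 3.06, 2.79 and 2.23 on the log2 scale. The cold-inducible gene Rbm3 fell by 1.31 and Cirbp had an estimate of -0.39. Control embryos gave log2 fold changes of 5.30 for Jun, 2.62 for Cdkn1a, 2.94 for Sesn2 and 2.30 for Hmox1. Of 24 genes of RNA sensing and interferon response, 10 passed the filter. Of these 0 rose and 3 fell (7 were not called), beside 10.5% higher and 16.0% lower among all genes. Irf1 and Stat2 were lower by 1.82 and 1.41 on the log2 scale. Adar, the most abundant of the list, had medians of 152 and 175 CPM. In controls, 0 of the 10 tested rose and 1 fell. Embryos of both stages had received Kdm5b-yfp mRNA, so a stage difference cannot show a response to injected RNA.

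The extent of the transition differed among the 6 Kdm5b 2C samples. Genes called higher in the control comparison, a set that no Kdm5b sample helped to choose, took 2.09 to 2.69% of the gene fragments in the Kdm5b zygotes and 7.15, 4.56, 4.34, 6.10, 6.49 and 8.29% in 2C replicates 1 to 6. Genes called lower in controls took 12.1 to 13.9% in the Kdm5b zygotes and 3.34, 4.61, 4.13, 3.31, 3.38 and 3.20% in the 2C replicates. Replicates 2 and 3 were thus the least shifted by both measures, though still outside the range of the zygotes. The control 2C samples, which helped to choose these genes, also spread, over 3.96 to 8.66% for the genes called higher and 3.44 to 6.17% for those called lower. The Eif1a-like genes together had 264, 38.0, 57.5, 247, 280 and 119 TPM in replicates 1 to 6, against 1.48 to 11.5 TPM in the zygotes, and replicates 2 and 3 were again lowest. In control 2C samples they had 116 to 606 TPM. The listed 2C activation genes did not follow this order. Together they had 1929, 1677, 1898, 2330, 2408 and 1667 TPM in replicates 1 to 6, against 1696 to 2006 TPM in the zygotes. Here the groups overlapped and replicate 6 was lowest. Kdm5b took 13.2, 8.27, 9.39, 15.8, 9.09 and 15.6% of gene fragments in the same order, and its part in this spread was not tested. Without replicate 2 the number of genes that rose was 1444, and without replicate 3 it was 1400.

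**Figure D3:**
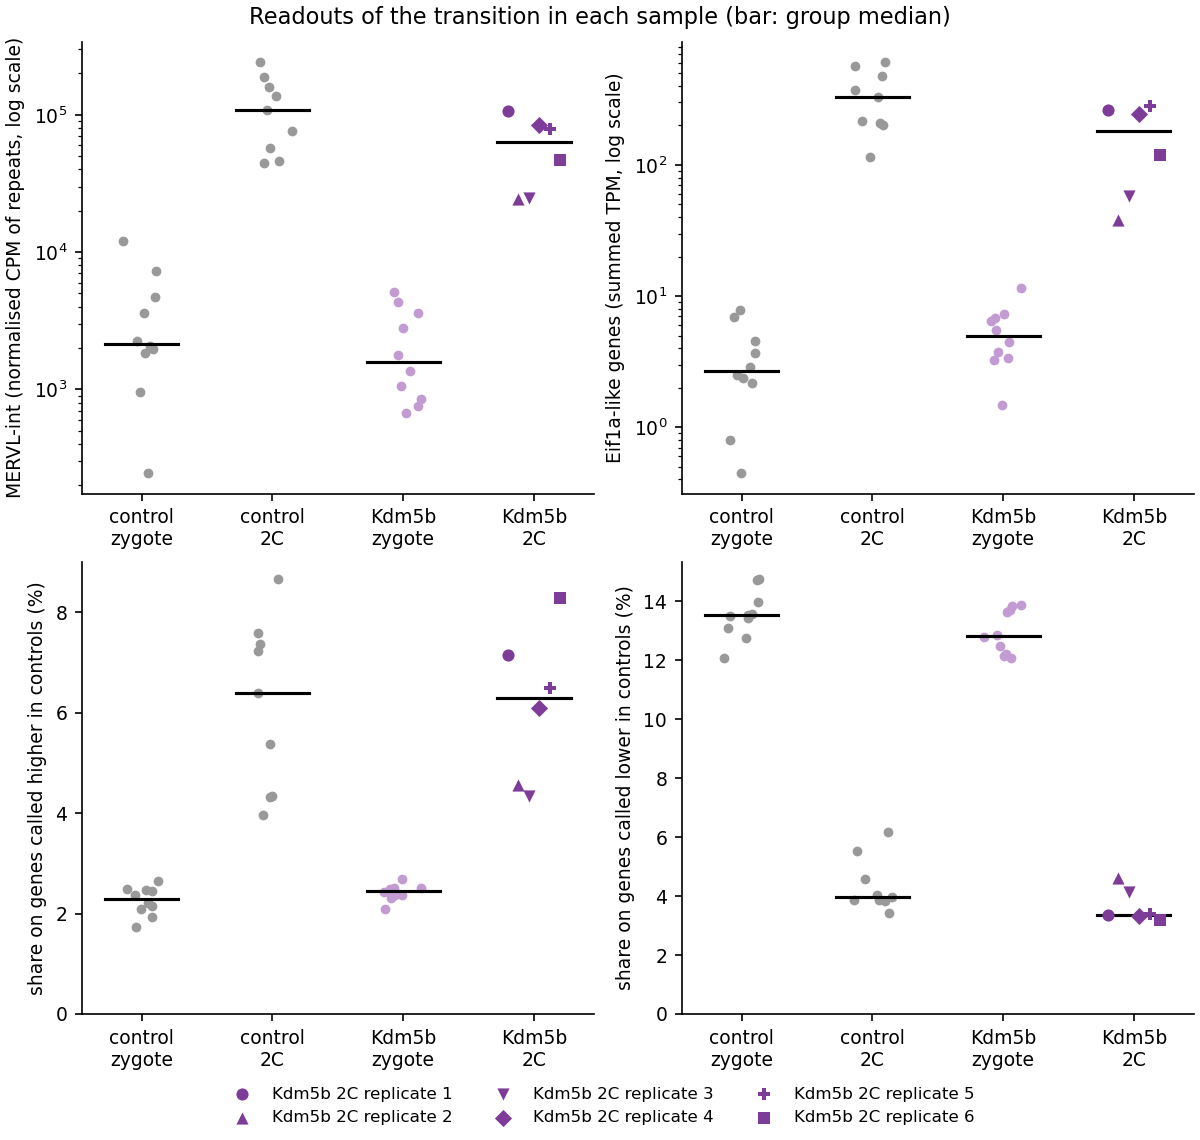
Each point is a sample, grouped by injection and stage, with bars at group medians and a separate marker for each of the 6 Kdm5b 2C replicates. The upper panels show MERVL-int (normalised CPM of repeats, log scale) and the summed TPM of the Eif1a-like genes (log scale), and the lower panels the percent of gene fragments on genes called higher or lower in controls; replicates 2 and 3 lie nearest to the zygotes in all 4 panels.

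More genes were detected at a low threshold. At equal depth, 11289, 11374 and 11585 genes reached 1 CPM in the zygotes and 11492, 11678 and 12163 in the 2C samples, a difference of means of 366.67 genes (exact permutation test, two-sided, adjusted p = 0.000874). At a threshold of 5 CPM the direction turned, with a difference of means of -190.27 genes (two-sided exact permutation p = 0.0455). Called genes were spread over the genome: between 6.63% (chromosome 8) and 13.7% (chromosome 13) of the tested genes on each autosome rose, and 13.2% on the X chromosome.

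Repeats gained weight against genes. For every 100 gene fragments there were 33.1, 34.9 and 38.7 repeat fragments in the Kdm5b zygotes and 47.4, 53.3 and 66.1 in the 2C samples (difference of means 19.0, exact permutation test, two-sided, adjusted p = 0.000187). The medians in the controls were 34.5 and 57.6. This shift makes the direction of repeats depend on the scale. Normalised on the repeats themselves, 144 of 2740 repeats tested were higher in the 2C samples (5.26%) and 239 lower (8.72%), with a median of 0.04, and 37.6% of the calls were higher. Scaled to the gene fragments, 406 were higher and 107 lower, 79.1% of the calls were higher, and the median moved to 0.45.

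MERVL stood out under both scales. MERVL-int, the internal part of the retrovirus, had 674 to 5148 CPM of repeats in the zygotes (median 1574) and 105670, 24563, 24655, 83671, 79176 and 46596 CPM in 2C replicates 1 to 6, which is without overlap and 27.5-fold higher (log2 fold change 4.78, standard error 0.439, adjusted p = 9.50e-09, edgeR); scaled to genes the value was 5.15. Its promoter element MT2_Mm rose from 533, 660 and 1002 CPM to 2254, 4825 and 6950 CPM, and 3 of the 8 MERVL and MT2 names were higher in all. MERVL-int and MT2_Mm were singled out after their values had been seen. ORR1A0-int, a MaLR element, rose from 92.2, 101 and 139 CPM to 504, 834 and 2446 CPM, and of 48 MaLR names 2 rose and 2 fell (6 and 1 when scaled to genes), with MTB_Mm-int lower by 1.42 on the log2 scale. Of 25 LINE-1 names of the L1Md group, 9 were higher, 0 lower and 16 not called, with a median of 0.77, beside 5.26% higher and 8.72% lower among all repeats (16 were higher when scaled to genes). L1MdGf_I had 23.7, 43.9 and 56.2 CPM in the zygotes and 182, 244 and 308 CPM in the 2C samples. Of 28 IAP and ETn names 7 were higher and 0 lower, beside the same shares, and 14 were higher when scaled to genes. Of 5 SINE names of the B2 and B3 group, B2_Mm1a, B2_Mm1t and B2_Mm2 rose by 1.22, 1.26 and 1.13 on the log2 scale, and B3 and B3A were not called. Of 15 B1 names, B1_Mm alone was called, higher by 1.30, with a list median of 0.25 (3 were higher when scaled to genes). Of 7 B4 and ID names 0 were called, beside 5.26% higher and 8.72% lower among all repeats. The major satellite GSAT_MM rose from 28.8, 62.4 and 85.02 CPM to 66.4, 495 and 2382 CPM, with overlap between the groups.

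Among the repeats that fell, MurSatRep1 went from 5882, 6134 and 6487 CPM to 2698, 2901 and 3394 CPM and RMER17A2 from 330, 380 and 419 CPM to 114, 151 and 193 CPM, but neither passed 2-fold when scaled to genes. LTR108e_Mam and Charlie6, old elements, fell by 2.48 and 2.34. Simple repeats, which were 1654 of the 2740 tested names, supplied 212 of the 239 lower calls and 51 of the 144 higher ones, and under gene scaling they were 165 higher and 97 lower. The repeat (CGCAGC)n fell from 92.5, 121 and 162 CPM to 11.8, 15.9 and 19.6 CPM and (GGAGCA)n from a median of 186 to 64.3 CPM, while (TGGGGCAGC)n rose from 0.568 to 37.5 CPM and (ATT)n from 1230 to 3055 CPM.

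**Figure D4:**
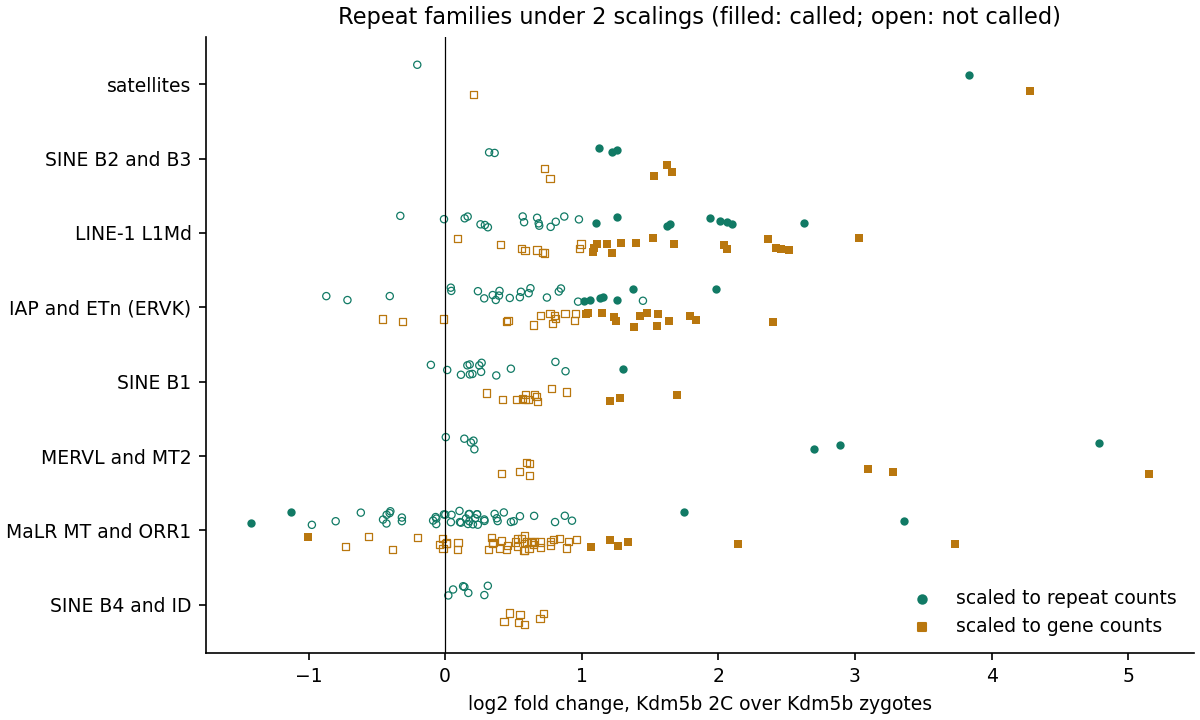
Each point is a tested name of 8 repeat families (simple repeats are not drawn), placed by its log2 fold change in Kdm5b 2C samples over Kdm5b zygotes, with circles for scaling to repeat counts and squares for scaling to gene counts; filled symbols were called. All families shift to the right under gene scaling, and of the names drawn MERVL-int, at 4.78 and 5.15, is farthest right.

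The transition was then set beside that of the water controls, which shares no sample with it but shares its library days and thawing. Over 11819 genes tested in both, the 2 sets of log2 fold changes had a Pearson r of 0.897 and a Spearman rho of 0.880 across genes, which are not independent replicates. Of 1101 genes higher in controls (9.20% of 11968) and 1555 lower (13.0%), those tested in both had the same sign in Kdm5b embryos in 98.3% and 99.6% of cases. Among the genes tested in both fits, 1173 were called higher in Kdm5b embryos and 1046 in controls, and 779 were called in both (66.4% of the former and 74.5% of the latter). For genes called lower, these numbers were 1943, 1555 and 1333 (68.6% and 85.7%). The genes called higher in controls had a median log2 fold change of 1.82 there and 1.47 in Kdm5b embryos, and those called lower -1.47 and -1.55. Choosing genes by their control values favours larger control medians, so these medians are a description. Zfp707 was the single gene called with opposite signs. Among the list members tested in both fits, the 2C activation genes gave 19 higher and 2 lower in controls with a median of 4.10, the nucleolar genes 2 higher and 14 lower with a median of -0.73, and the proteasome genes 1 higher and 22 lower with a median of -1.27. For repeats, r was 0.812 over 2594 names tested in both, of which 132 were higher in Kdm5b embryos, 98 in controls and 61 in both (46.2% and 62.2%).

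**Figure D5:**
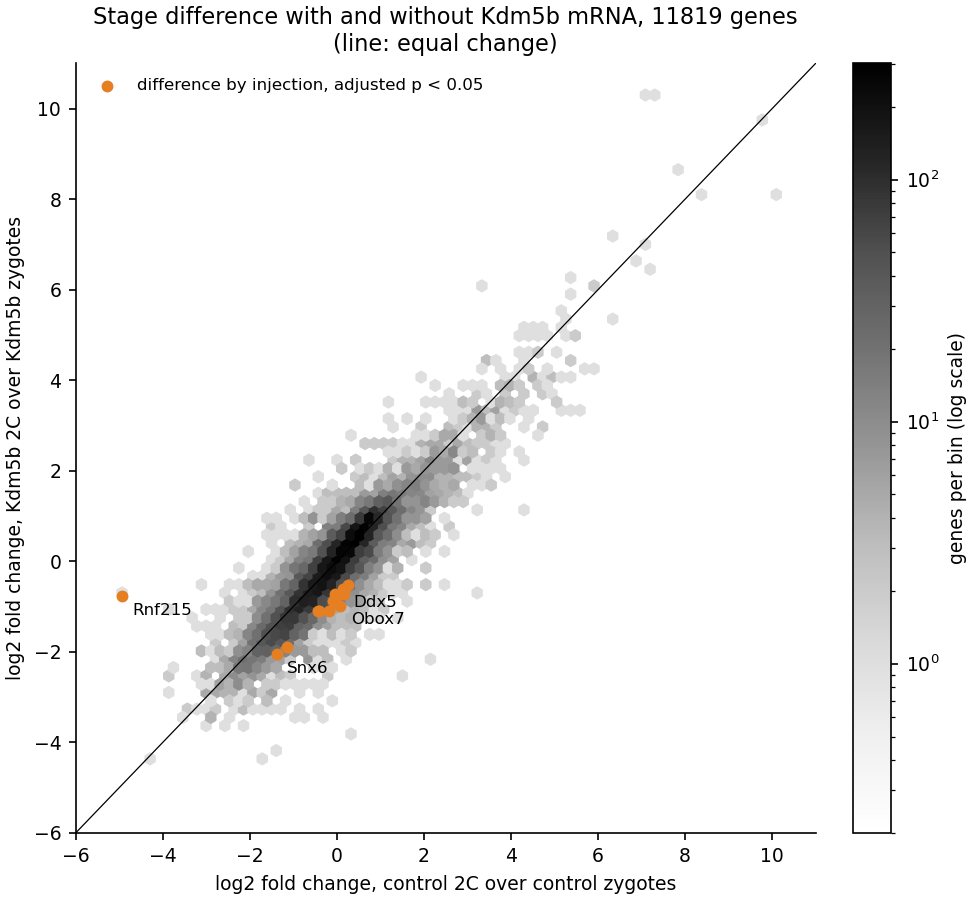
The stage difference in controls (x axis, log2 fold change) is plotted against that in Kdm5b embryos (y axis, log2 fold change) for 11819 genes, with darker bins holding more genes and a line at equal change. Genes whose difference by injection reached an adjusted p under 0.05 are in orange, and all but Rnf215 lie below the line.

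The difference between the 2 transitions was tested for 13778 genes in a fit of all 35 samples. Of these, 2 passed both thresholds and 15 (0.109%) had an adjusted p under 0.05, while 1254 had an unadjusted p under 0.05. DESeq2 gave 88 genes at an adjusted p under 0.05 and 5 past both thresholds. Obox7, an oocyte homeobox gene, had 77.0, 92.4 and 110 CPM in Kdm5b zygotes and 25.8, 43.7 and 76.6 CPM in Kdm5b 2C samples, against medians of 97.2 and 101 CPM in the controls. Its difference was -1.04 on the log2 scale (standard error 0.191, adjusted p = 0.0152, edgeR), and its size dropped under 2-fold without Kdm5b 2C replicate 1 or 6 or control zygote replicate 10, or with single intact 2C embryos only. Rnf215, a RING finger gene at the limit of detection, differed by 4.18 (standard error 0.863, adjusted p = 0.0281), with 305 and 72 fragments over the Kdm5b zygotes and 2C samples and 5 fragments over all 9 control 2C samples, and it no longer passed the adjusted p without Kdm5b 2C replicate 3, 4 or 6 or Kdm5b zygote replicate 3, with a replicate block, or with single intact 2C embryos only. The other 13 genes were all lower in Kdm5b 2C embryos than the control transition would place them, by 0.65 to 0.92 on the log2 scale. Among them the RNA helicase gene Ddx5 had medians of 331 and 218 CPM in Kdm5b embryos and 315 and 321 CPM in controls, the checkpoint kinase gene Ttk 402 and 234 CPM against 438 and 409 CPM, and the replication clamp gene Pcna 98.5 and 55.2 CPM against 96.7 and 84.7 CPM. Nlrp4f of the subcortical complex (2153 and 1382 CPM against 2153 and 2457 CPM), Nobox, the cohesin acetyltransferase gene Esco2, the spliceosome gene Snrpb2, the nucleolar gene Wdr43, Camk2g, Snx6, Hsf5, Safb and Fam133b made up the rest. The count past both thresholds was 13 without Kdm5b 2C replicate 2 and 0 without replicate 6, the pool. Among 3065 repeats tested in the same way 0 had an adjusted p under 0.05 by edgeR, with 204 at an unadjusted p under 0.05, and DESeq2 gave 2 at an adjusted p under 0.05, of which 1 passed both thresholds. None of the 2C activation genes, Eif1a-like genes or MERVL names reached an adjusted p under 0.05 in this test.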

How the data were processed

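RNA from single embryos or pooled blastomeres was sequenced with a stranded SMART-Seq kit. The authors trimmed reads with fastp 0.21.0, aligned them with STAR 2.7.3a to GRCm38 (mm10), and deposited a table of raw counts of fragments on 24480 RefSeq genes, made with featureCounts 1.5.1 by strand and without fragments that match several places. They also deposited SalmonTE estimated counts for 18536 repeat names, of which 5.04% of values are not whole; these were rounded. Repeats overlapping Kdm5b exons had been left out by the authors, who used DESeq2 1.30.1 for their own comparisons.

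Groups came from the GEO labels, and embryos are the replicates. The Kdm5b row was removed. edgeR 4.0.16 (R 4.3.3) fitted the 10 Kdm5b zygotes and 6 Kdm5b 2C samples by its quasi-likelihood method, after filterByExpr (minimum count 10) and TMM; p-values were adjusted by Benjamini-Hochberg, and a gene was called when this value lay under 0.05 and the log2 fold change was beyond 1 in size. Control samples were fitted separately, and the difference by injection over all 35 samples. Triplets of values are the lowest, median and highest sample; CPM use TMM factors and TPM the summed exon length. Counting intervals at 95% cover counting error only. Totals of 9611553 to 16004780 fragments per sample leave genes under 1 CPM with few fragments, and their fold changes are less precise. The scripts were tested on simulated data.

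The members and gene lists were chosen with earlier results of these data known. Genes named are the 12 called genes with the smallest p in each direction, the 4 most abundant called genes per direction, the extreme and most abundant members of each list, those the study names and those that differed by injection. Further list members, MERVL-int and MT2_Mm were named after their values were seen, and a few genes that the rule selects are not reported here. Alternatives were DESeq2 1.42.0, limma 3.58.1 (voom), other scalings and filters, thinning to equal depth, intact embryos only, a replicate block and leaving out each sample. Same-numbered samples did not deviate together, and no 2 libraries agreed within sampling noise. Python 3.11.15, numpy 2.4.6, pandas 2.3.3, scipy 1.17.1 and matplotlib 3.10.9 were also used.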

Additional observations from a re-analysis of the deposited data

Results flagged for a closer look

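In 200 groups of at most 10 samples a sample standing far from the rest was looked for, by the gap to its nearest neighbour, and 17 were found. By chance this is met in about 5% of groups. Of these, 4 were single zygotes with a few fragments of a gene that was at or near 0 in the others: Ubtfl1 at 0.0631 CPM (replicate 6), Gm13078 at 0.175 CPM (replicate 8), Gm8300 at 0.315 CPM (replicate 6) and Gm5662 at 0.227 CPM (replicate 9). Zygote replicate 8 was highest for Gm5039, at 5.68 CPM (the others 0.368 to 3.16). Zygote replicate 3 was lowest for ND2, at 683 CPM, and for the mitochondrial share of gene fragments, at 0.714%.

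Among the Kdm5b 2C samples, replicate 1 was far above the rest for Klf5 (90.6 CPM, the others 9.29 to 28.1), Jun (76.4 CPM), Kdm5a (33.6 CPM, the others 9.45 to 14.9), Rpsa (40.3 CPM) and ORR1A0-int (2446 CPM of repeats). Replicate 2 was highest for 3 genes that fell, Ssb (209 CPM), Fam50a (35.3 CPM) and Gpatch1 (26.2 CPM). Replicate 6, the pool of blastomeres, was highest for Psme4 (1661 CPM) and Btg4 (3828 CPM). Klf5 and Kdm5a were still called without replicate 1, at 3.38 and 1.01 on the log2 scale, and Psme4 without replicate 6, at 1.12.

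The test of the difference between the Kdm5b and control transitions singled out Rnf215 (4.18 on the log2 scale) and Obox7 (-1.04), both described above with the samples on which they rest.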

How the results depend on the processing

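Of 102 results for single genes and repeats that were examined, 85 kept their direction and their side of the threshold under every alternative run, and 0 changed sign. Genes that rose numbered 1301; this became 1977 with DESeq2, 1988 without the filter on low counts, 722 among genes with a mean of 50 counts or more, and 3625 with no threshold on the fold change. Genes that fell numbered 1977, and 3654 with no threshold on the fold change. Of all calls, 39.7% were higher, against 49.5% with DESeq2, whose median over the 20183 genes it tested was 0.15 on the log2 scale, and 44.3% with its size factors in edgeR. Repeats numbered 144 higher and 239 lower; scaling to gene counts gave 406 and 107, leaving out simple repeats 63 and 47, no fold threshold 550 and 574, and no filter 538 higher. Leaving out each sample in turn gave 1196 to 1444 genes higher, 1930 to 2156 lower, up to 148 repeats higher and 224 to 278 lower. The number of genes that differed by injection was 2, and it became 5 with DESeq2, 12 with intact embryos only and 15 with no fold threshold. Neither Obox7 nor Rnf215 was among the 12. Leaving out single samples gave 0 to 13 (0 without Kdm5b 2C replicate 6, 13 without Kdm5b 2C replicate 2, 6 without control 2C replicate 6, and 1 without control zygote replicate 10, Kdm5b 2C replicate 1 or Kdm5b zygote replicate 3). Repeats that differed by injection were 0, and 1 with DESeq2. The number of genes detected reversed, from 366.67 more at 1 CPM to a difference of -190.27 at 5 CPM. The cause of these shifts was not tested. Replicate numbers are shared between the groups, but the correlation of the deviations of same-numbered samples was between -0.039 and 0.039; a fit with a replicate block gave 1004 genes higher and 2047 lower, 113 and 251 repeats, and 3 genes and 0 repeats that differed by injection. Low counts limit the fold changes of genes near 0 in zygotes.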
